A study of Mus musculus with 4 samples.

Results

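The cornified envelope genes encode the proteins from which keratinocytes build their outermost shell and the enzymes that assemble and shed it. They were taken by symbol and not by value: every probe set with a single gene symbol of the late cornified envelope family (*Lce*) or the small proline-rich family (*Sprr*), and those of *Lor*, *Flg*, *Flg2*, *Hrnr*, *Ivl*, *Rptn*, *Tgm1*, *Tgm3*, *Casp14*, *Cdsn*, *Klk5*, *Klk7*, *Spink5*, *Dsg1a*, *Dsc1*, *Evpl*, *Ppl*, *Cnfn* and *Asprv1*. This gave 52 probe sets for 42 genes, of 18193 genes on the array. *Flg2* had 0 probe sets of its own, as did 14 of the 38 *Lce* and *Sprr* genes that RefSeq lists in mouse assembly GRCm38.p6.

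Expression was measured in dermal cells from skin of C57BL/6 females aged 10 weeks, with 1 Affymetrix array for each of 4 conditions. The virgin array held abdominal skin of virgin mice, the dorsal array back skin of 15 dpc (days post-coitus) mice and the abdominal array abdominal skin of 15 dpc mice, all after intradermal injections of the solvent dimethyl sulphoxide (DMSO). The PP2 array held the same skin and stage after PP2, an inhibitor of Src kinases, and injections were given 2 times a day for 4 days, from 12 dpc in pregnant mice. The sample titles give 15 dpc, whereas the sample descriptions give 16 dpc, and none of the sources used states the number of mice behind each array.

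The values are signals, which are intensities on a linear scale, each with a call of present, marginal or absent. Present calls went to 58.4% to 59.7% of all 45101 probe sets on the 4 arrays. The PP2 array stood apart in a sign of RNA quality, with 3' over 5' *Gapdh* control signals in a ratio of 5.84 against 1.41 to 2.97 on the others, but not in that of β-actin (2.70 against 2.03 to 4.14). The dorsal and abdominal arrays differed in both, at 2.97 and 1.41 for *Gapdh* and 4.14 and 2.03 for β-actin. With 1 array per condition no difference has an error or a p-value, and precision is limited by their number. In RNA from mixed cells, fewer cells of a type and less RNA per cell cannot be told apart. The preparation is labelled dermis, and the fibroblast collagen genes *Col1a2* (19808 to 25696 on the 4 arrays) and *Col3a1* (22191 to 30307) were present throughout. So were the keratin genes of the basal epidermis and of the outer root sheath of hair, *Krt5* (8098 to 19184) and *Krt14* (10184 to 14877), so every preparation also held keratinocyte RNA.

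Keratinocytes leave the basal layer, pass through a spinous and a granular layer and die as flat corneocytes. On the way they deposit envoplakin, periplakin and involucrin beneath the membrane. Loricrin and the small proline-rich and late cornified envelope proteins are added later, and transglutaminases cross-link them all. Filaggrin and its relatives bundle keratin filaments inside the cell, while corneodesmosomes hold the dead cells together until kallikrein proteases cut them.

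The detected genes of the cornified envelope were highest on the dorsal array with few exceptions. Of the 42 genes, 28 were called present on at least 1 array, and 25 of these had their highest signal on the dorsal array with a present call there, against 26.3% of all 13375 detected genes. The 19 genes called present on all 4 arrays were all highest on the dorsal one in the signals as deposited, against 27.0% of the 11086 genes called present throughout. On the dorsal array 15 of the 28 exceeded each of the other arrays by a ratio above 2, as did 1.14% of detected genes. The exceptions were *Rptn*, highest on the virgin array (background 20.2%), *Sprr2h*, highest on the abdominal array (background 21.4%), and *Lce1f*, whose highest signal, on the virgin array, had no present call.

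Between the 2 body sites at 15 dpc, a gene was counted as higher if 1 or more of its probe sets differed by a ratio above 2, with a present call on the array of higher signal. By this count 18 of the 28 genes were higher on the dorsal than on the abdominal array, where 8.81% of all genes were, and 1, *Sprr2h*, was higher on the abdominal array, where 8.54% were. The median log2 ratio of dorsal over abdominal, with each gene represented by its brightest probe set, was 1.18 (a ratio of 2.27) for these genes and -0.04 for all detected genes. Against the virgin array, 20 of 27 were higher on the dorsal array (background 7.43%) and 0 were lower (background 6.71%), with a median of 1.64 against -0.01 for all. Against the PP2 array, 23 of 27 were higher (background 15.6%) and 0 lower (background 8.16%). The dorsal and virgin arrays differ in both site and pregnancy, and the dorsal and PP2 arrays in both site and injection, so the parts of these cannot be told apart. The unequal 3' over 5' controls of the dorsal and abdominal arrays, given above, belong beside these values, and their part was not tested.

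**Figure D1:**
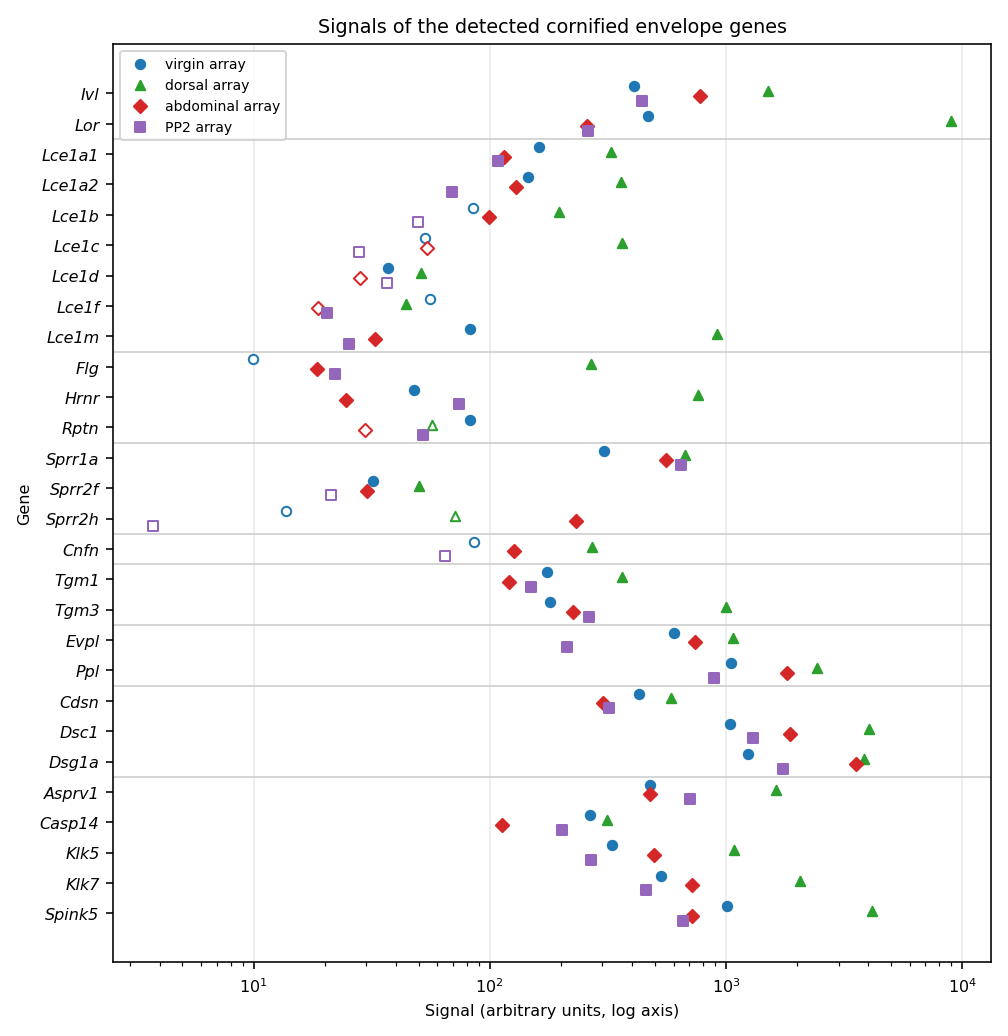
Signal (arbitrary units, log axis) of the 28 detected genes on the 4 arrays, by each gene's brightest probe set and grouped by role, with 1 symbol per array and open symbols where the probe set had no present call. Green triangles (dorsal) lie farthest to the right for 25 genes with a present call, and *Lor*, at 8964 on the dorsal array, has the widest gap to the other 3.

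Loricrin, the glycine-rich protein that makes up most of the envelope's mass, had the largest excess on the dorsal over the abdominal array. The signal of *Lor* was 469 in virgin, 8964 in dorsal, 257 in abdominal and 262 in PP2-treated skin, all called present. The dorsal signal was thus 19.1-fold, 34.8-fold and 34.3-fold above the virgin, abdominal and PP2 signals, and a second probe set, whose probes may match related transcripts, gave 29.3-fold, 53.6-fold and 46.0-fold. Among the 3 abdominal skins *Lor* was 1.82-fold higher in virgin than in 15 dpc mice, and the abdominal and PP2 signals differed by 1.02-fold. One more probe set of *Lor* had no present call.

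Involucrin, which is laid down earlier than loricrin, varied far less. *Ivl* had signals of 409, 1514, 778 and 441 on the virgin, dorsal, abdominal and PP2 arrays, a dorsal excess of 3.70-fold, 1.95-fold and 3.43-fold over the virgin, abdominal and PP2 arrays. Here the abdominal array stood second, 1.90-fold above the virgin and 1.76-fold above the PP2 array, which is the reverse of its place for *Lor* against the virgin array.

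The *Lce* genes encode small proteins of the uppermost granular layer that are joined to the envelope late. Of 15 on the array 7 were detected, all of them of the *Lce1* group. *Lce1m* had signals of 82.9, 915, 32.6 and 25.3 on the virgin, dorsal, abdominal and PP2 arrays, with a present call on each. Its dorsal signal exceeded them by 11.0-fold, 28.1-fold and 36.2-fold, and its abdominal signal was 2.54-fold below the virgin one. The abdominal and PP2 signals of *Lce1m* were dim, so the size of these folds is uncertain. *Lce1c* was called present on the dorsal array alone, at 362 against 53.2, 54.2 and 27.9, which is at least 6.79-fold, 6.67-fold and 12.9-fold higher. Where a probe set had no present call on the dimmer array, a fold is written with "at least". The divisor was then its signal there or the dimmest present signal of that array, whichever is higher. This is a convention and not a firm bound, since genes without a present call on any array had signals of up to 227.

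The other *Lce1* genes lay closer together. *Lce1a2* had signals of 145, 360, 129 and 68.9 in the same order, and *Lce1a1* 162, 327, 115 and 108, so that both were 2.02-fold to 5.22-fold higher on the dorsal array. A dimmer probe set of *Lce1a1* gave 84.7, 194, 76.0 and, without a present call, 17.2. *Lce1b* was called present on the dorsal (196) and abdominal (99.6) arrays and not on the virgin (84.6) and PP2 (49.6) arrays. *Lce1d* (37.2, 51.3, 28.3 and 36.8) and *Lce1f* (55.9, 44.3, 18.8 and 20.4) were near the limit of detection, each present on 2 arrays, and with quantile normalization *Lce1d* was highest on the PP2 array. The genes of this family are near copies of each other, and the brightest probe sets of *Lce1a1*, *Lce1d* and *Lce1m* are of types whose probes can match several transcripts, so the signal of one may include that of another.

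Of the other 8 *Lce* genes (*Lce1g*, *Lce1h*, *Lce1i*, *Lce1l*, *Lce3a*, *Lce3b*, *Lce3c* and *Lce3f*), 0 were called present on any array. The *Lce3* genes measured here, of a group known in human skin for its induction after injury of the barrier, were therefore not detected in any of the 4 preparations. *Lce3d* and *Lce3e* had no probe set of their own and were not assessed. The 14 undetected members of all families had signals between 2.15 and 227.

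The fused S100 proteins, long repetitive proteins that begin with a calcium-binding domain, divided into a pair with a large dorsal excess and one without. Hornerin (*Hrnr*) had signals of 47.8, 762, 24.5 and 74.1 on the virgin, dorsal, abdominal and PP2 arrays, and the dorsal signal was 10.3-fold to 31.1-fold above the others, most so against the abdominal array. Filaggrin (*Flg*), the precursor of the filament-bundling protein and of moisture-holding amino acids, had signals of 9.97 with no present call, 269, 18.6 and 22.2. It was at least 25.2-fold higher on the dorsal than on the virgin array, and 14.5-fold and 12.1-fold higher than on the abdominal and PP2 arrays. The abdominal signals of *Hrnr* and *Flg* and the PP2 signal of *Flg* were dim though called present, so the size of these folds is uncertain. Repetin (*Rptn*) had 82.4, 56.7, 29.6 and 52.2 by its brightest probe set, present on the virgin and PP2 arrays only, while a second one (34.1, 46.0, 18.9 and 18.4) was highest on the dorsal array and one more (27.2, 32.4, 18.3 and 35.9) on the PP2 array, so its order is not settled.

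The *Sprr* genes, which encode flexible cross-bridging proteins and are known for their induction in stressed or wounded epithelia, had 3 detected members of 9, of which *Sprr1a* and *Sprr2f* were highest on the dorsal array in the deposited signals and *Sprr2h* on the abdominal array. *Sprr1a* had signals of 305, 669.7, 560.3 and 648 on the virgin, dorsal, abdominal and PP2 arrays. The 3 arrays of 15 dpc mice lay within 1.20-fold of each other, with the PP2 array highest once arrays were scaled to one median or by quantiles, and all were above the virgin array, by 2.20-fold, 1.84-fold and 2.13-fold. *Sprr2h* was called present on the abdominal array alone, at 232 against 13.8, 71.3 and 3.76 on the virgin, dorsal and PP2 arrays, which is at least 16.9-fold, 3.26-fold and 58.7-fold higher. The probes of this probe set can match related *Sprr2* transcripts, and with a present call on the abdominal array alone the size of these folds is uncertain. *Sprr2f* was dim throughout (32.0, 50.1, 30.3 and 21.4, the last with no present call), and *Sprr1b*, *Sprr2d*, *Sprr2i*, *Sprr2j-ps*, *Sprr2k* and *Sprr3* were not called present anywhere.

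Most *Sprr* genes, *Lor* and *Ivl* shared a short promoter sequence. In the 250 bases before the start of transcription in RefSeq (GRCm38.p6), the sequence TGACTCA, read on both strands (as TGAGTCA on the other) and known as the binding motif of AP-1 factors, was found in 8 of the 35 members with a promoter in the table (22.9%), against 4.43% of 27025 genes. These were *Lor*, *Ivl*, *Sprr1a*, *Sprr2d*, *Sprr2f*, *Sprr2h*, *Sprr2i* and *Sprr2k*, of which *Ivl*, *Lor*, *Sprr1a*, *Sprr2f* and *Sprr2h* were detected. The *Sprr2* genes are copies of each other, so their matches are not separate observations. None of the *Lce* promoters held the sequence. At a share of 4.43% among all genes few matches would be expected in them, and the *Lce* genes are near copies too, so this lack is not read as a difference. The TATA box sequence TATAAA, searched on both strands, was in 16 of the 35 (45.7%) against 13.0% of all. A match is a description of the letters and not a site of binding. The promoters of 5 genes are shown because they stand for the patterns above, 3 with a large dorsal excess (*Lor*, *Lce1m* and *Hrnr*) and 2 without (*Sprr1a* and *Sprr2h*). They are written 5′ to 3′ on the gene's strand, with TGACTCA or TGAGTCA and TATAAA in capitals, at chr3:92083143-92083392 (minus strand), chr3:93019062-93019311 (minus), chr3:93319499-93319748 (plus), chr3:92485882-92486131 (minus) and chr3:92385435-92385684 (plus) in turn.
*Lor*: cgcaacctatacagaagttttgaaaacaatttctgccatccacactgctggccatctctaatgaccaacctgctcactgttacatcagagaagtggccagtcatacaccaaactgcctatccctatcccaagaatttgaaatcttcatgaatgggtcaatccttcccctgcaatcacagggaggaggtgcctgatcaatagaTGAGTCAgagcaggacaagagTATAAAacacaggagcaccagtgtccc
*Lce1m*: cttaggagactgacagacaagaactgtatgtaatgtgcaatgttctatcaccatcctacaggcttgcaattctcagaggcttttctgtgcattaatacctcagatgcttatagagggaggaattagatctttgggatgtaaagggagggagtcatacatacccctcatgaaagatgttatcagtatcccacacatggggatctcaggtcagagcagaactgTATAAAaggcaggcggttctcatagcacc
*Hrnr*: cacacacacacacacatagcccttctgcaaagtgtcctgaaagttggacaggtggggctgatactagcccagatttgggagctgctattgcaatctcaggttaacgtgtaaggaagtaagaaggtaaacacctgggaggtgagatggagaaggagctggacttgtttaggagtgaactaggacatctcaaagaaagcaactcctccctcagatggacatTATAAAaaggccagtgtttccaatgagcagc
*Sprr1a*: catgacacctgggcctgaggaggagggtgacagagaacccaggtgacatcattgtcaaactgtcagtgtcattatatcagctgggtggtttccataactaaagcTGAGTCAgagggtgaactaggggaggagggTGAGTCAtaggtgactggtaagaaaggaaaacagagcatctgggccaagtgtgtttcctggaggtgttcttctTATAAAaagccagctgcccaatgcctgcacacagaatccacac
*Sprr2h*: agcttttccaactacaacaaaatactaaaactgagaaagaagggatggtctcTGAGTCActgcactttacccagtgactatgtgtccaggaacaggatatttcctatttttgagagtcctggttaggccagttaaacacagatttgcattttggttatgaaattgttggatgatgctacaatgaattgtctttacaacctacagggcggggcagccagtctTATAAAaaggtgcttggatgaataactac
The motif TGACTCA began 48 bases before the start in *Lor*, 116 and 146 bases before it in *Sprr1a* and 198 bases before it in *Sprr2h*, and it was not among these letters in *Lce1m* and *Hrnr*. TATAAA began 27 to 43 bases before the start in all 5. Among the 13 genes with a dorsal excess above 2 over each other array and a promoter in the table, 1, *Lor*, held TGACTCA.

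The transglutaminases of this set, *Tgm1* and *Tgm3*, which join the envelope proteins by isopeptide bonds, were both highest on the dorsal array. *Tgm5*, listed with the other genes of the cornified layer, was lowest there, with 874, 714, 800 and 1116 on the virgin, dorsal, abdominal and PP2 arrays. *Tgm1*, the membrane-bound enzyme, had signals of 176, 364, 121 and 150.0 on the virgin, dorsal, abdominal and PP2 arrays, a dorsal excess of 2.07-fold, 3.01-fold and 2.43-fold. *Tgm3*, the soluble enzyme of the upper epidermis and of the hair follicle, had 179.7, 1002, 224 and 263, an excess of 5.57-fold, 4.47-fold and 3.81-fold. It was 1.25-fold higher on the abdominal than on the virgin array. Cornifelin (*Cnfn*), an envelope component, had 85.8, 270.0, 126 and 65.0, with present calls on the dorsal and abdominal arrays only.

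The plakins, which serve the early scaffold, and the genes of the corneodesmosome, which serve adhesion, differed by 1.08-fold to 2.15-fold between the sites. Periplakin (*Ppl*) had signals of 1051, 2423, 1818 and 890.5 on the virgin, dorsal, abdominal and PP2 arrays, and envoplakin (*Evpl*), its partner, 605, 1077, 742 and 213. Their dorsal signals were 1.33-fold and 1.45-fold above the abdominal ones. Desmoglein 1 (*Dsg1a*), an adhesive cadherin of the upper epidermis, had 1244, 3847, 3567 and 1752, so that dorsal and abdominal arrays lay within 1.08-fold of each other. Desmocollin 1 (*Dsc1*), its counterpart, had 1039, 4042, 1876 and 1299, and corneodesmosin (*Cdsn*), the glue of the corneodesmosome, 427, 583, 302 and 321.

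The 5 protease and inhibitor genes of this set were all higher on the dorsal than on the abdominal array, by 2.19-fold to 5.81-fold. *Klk5* and *Klk7*, kallikreins that cut corneodesmosomes, had signals of 329, 1084, 495 and 269.7, and of 533, 2055, 719.6 and 459.6. *Spink5*, which encodes their inhibitor LEKTI, had 1016, 4170, 718 and 656, a dorsal excess of 4.11-fold, 5.81-fold and 6.36-fold. The genes of these kallikreins and of their inhibitor were thus high on the same array. *Asprv1*, which encodes a protease that processes filaggrin, had 478, 1633, 476 and 702, and *Casp14*, the caspase of cornification, 266, 314, 113 and 203. The probe set of *Casp14* may also match other transcripts, and it was the only one of these 5 genes whose dorsal signal lay close to the virgin one, at 1.18-fold. A list of 12 other detected epidermal proteases and inhibitors had a median log2 ratio of dorsal over abdominal of 0.01, with 6 genes on each side of 0. Of 10 called present on either array 1, *Cst6*, was over 2-fold higher on the dorsal array (background 8.81%) and 0 were lower (background 8.54%).

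**Figure D2:**
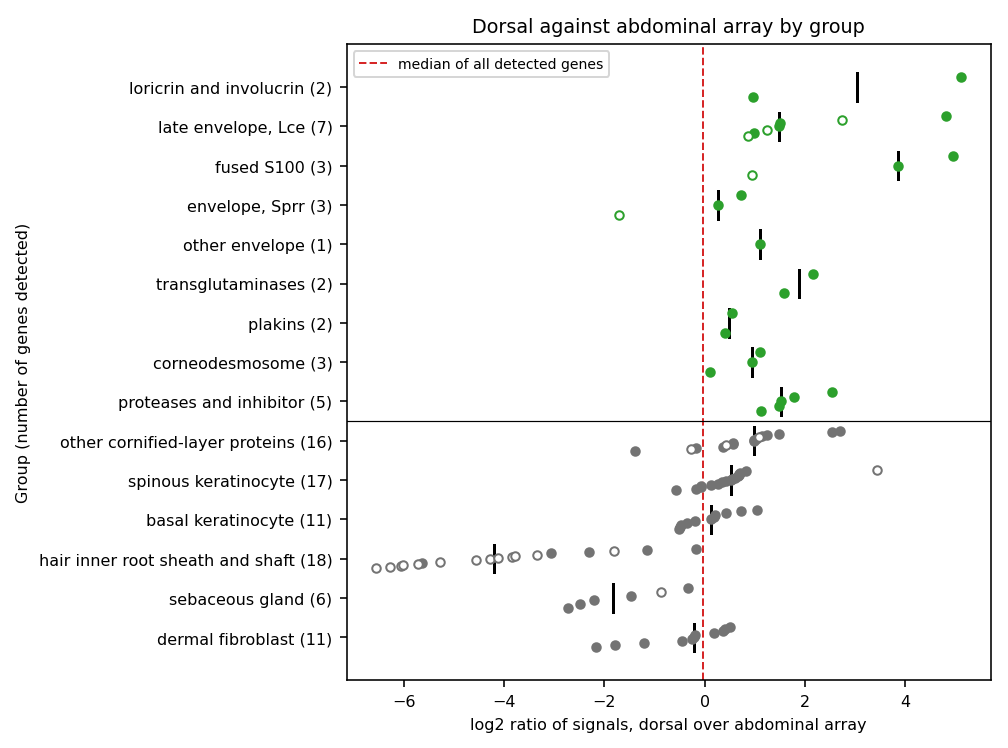
log2 ratio of signals, dorsal over abdominal array, for each detected gene by role (green, above the line) and for other gene lists (grey), with black bars at the median of each group and open symbols where a gene lacked a present call on one of these arrays. The dashed red line is the median of all detected genes, -0.04; members of the envelope reach 5.12 for *Lor*, while hair genes lie on the other side, with a median of -4.20.

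By role, the median log2 ratio of dorsal over abdominal was 3.86 for the 3 fused S100 genes, 3.04 for *Lor* and *Ivl*, 1.87 for the transglutaminases, 1.51 for the proteases with *Spink5*, 1.48 for the detected *Lce* genes, 0.95 for the corneodesmosome, 0.48 for the plakins and 0.26 for the detected *Sprr* genes. The value of the fused S100 genes rests on dim abdominal signals. The dorsal excess also differed between lists of genes along the path of keratinocyte differentiation. These lists differ in brightness, with median abdominal signals of 5999 for the basal, 6091 for the spinous and 177 for the envelope genes. The part of brightness in the ratios was not tested. Of 11 detected genes of basal keratinocytes, 1 was over 2-fold higher on the dorsal than on the abdominal array (8.81% of all genes were), and the median log2 ratio was 0.13. Of 17 spinous genes 2 were, with a median of 0.53, and of 16 other genes of the cornified layer 9, with a median of 0.98. Barrier lipid enzymes (20 detected genes) and regulators of terminal differentiation (17), described below, had smaller medians than the spinous list, 0.31 and 0.25. Of the 28 envelope genes, 17 had a larger ratio than any basal gene, the largest of which was 2.07 for *Dst*, and 4 had a larger one than any spinous gene, the largest of which was at least 10.8 for *Krt2*. Over the virgin array these numbers were 15 and 0. *Krt10*, a keratin of the spinous layer, had signals of 20305, 38195, 26475 and 15645 on the virgin, dorsal, abdominal and PP2 arrays, and *Krt2*, a keratin of the upper layers, 19.9, 739, 68.5 and 133, with present calls on the dorsal and PP2 arrays. The sum of signals was 62219, 90573, 80616 and 53727 for the basal list and 118742, 224243, 154779 and 100800 for the spinous list, in the same order of arrays. Other lists moved in other ways: hair genes of the inner root sheath and shaft summed to 1213, 1818, 21914 and 2979 (18 of 18 present on the abdominal array and 5 on the dorsal array), and 6 genes of the sebaceous gland to 49789, 24346, 41808 and 41530. Of the 6 sebaceous genes, 5 were over 2-fold lower on the dorsal than on the abdominal array (background 8.54%), and the median log2 ratio of the 6 was -1.84. The 11 detected fibroblast genes summed to 155491, 125777, 142338 and 124486. By the count, 5 of the 11 were lower on the dorsal than on the abdominal array (*Col1a1*, *Col1a2*, *Col3a1*, *Col5a1* and *Lum*) and 1 was higher, with a median log2 ratio of -0.21. The part of epidermis, hair or glands left in each preparation in these results was not tested.

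Other genes of the late epidermis, listed apart from the envelope genes, were counted above as 9 of 16 higher on the dorsal than on the abdominal array, and 2 of 16, *Krt79* and *Them5*, were lower. *Krt79*, a keratin of the follicle's duct, had signals of 8786, 2793, 7290 and 7017 on the virgin, dorsal, abdominal and PP2 arrays. *Crct1*, which lies in the same gene cluster, was 5.78-fold and *Stfa3*, which encodes an inhibitor of cysteine proteases, 6.52-fold higher on the dorsal than on the abdominal array. *Them5* was counted in both directions, by different probe sets. Of 20 detected enzymes of barrier lipids 2 were over 2-fold higher on the dorsal than on the abdominal array and 2 lower, and of 17 regulators of terminal differentiation 2 were higher and 1 lower, beside 8.81% higher and 8.54% lower among all genes. Among these regulators *Ovol1* had signals of 154, 572, 325 and 265 and *Grhl3* 165, 422, 262 and 195 on the virgin, dorsal, abdominal and PP2 arrays, both highest on the dorsal one. *Grhl1* had 778, 1604, 1590 and 1109. *Klf4* (28102, 27990.5, 19515 and 18623) and *Prdm1* (1150, 722, 358 and 1081) were highest on the virgin array, *Klf4* by little over the dorsal one. Both were higher on the dorsal than on the abdominal array, and *Prdm1* was among the 2 regulators counted as higher there. *Maf* (5055, 2928, 5599 and 4017) was highest on the abdominal array.

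In abdominal skin, 15 dpc and virgin mice differed little in these genes as a whole. Of 26 genes 2, *Dsg1a* and *Sprr2h*, were higher on the abdominal array (background 5.69%) and 3, *Casp14*, *Lce1m* and *Rptn*, were lower (background 6.34%). The median log2 ratio was 0.01, against 0.02 for all detected genes, and 14 genes lay on each side of 0. By role the median log2 ratio ran from -0.96 for the fused S100 genes and -0.39 for the detected *Lce* genes to 0.54 for the plakins, 0.85 for the corneodesmosome and 0.88 for the 3 detected *Sprr* genes. Genes above the virgin array included *Dsg1a* (2.87-fold), *Ivl* (1.90-fold), *Sprr1a* (1.84-fold), *Dsc1* (1.81-fold) and *Ppl* (1.73-fold). Genes below it included *Lce1m* (2.54-fold), *Casp14* (2.35-fold), *Hrnr* (1.95-fold), *Lor* (1.82-fold), *Tgm1* (1.45-fold) and *Spink5* (1.41-fold). *Flg*, unlike its relative *Hrnr*, had no present call in virgin skin and was at least 1.74-fold higher on the abdominal array. Most of these ratios were under 2, and the basal and spinous lists had median log2 ratios of 0.66 and 0.72 in the same comparison.

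**Figure D3:**
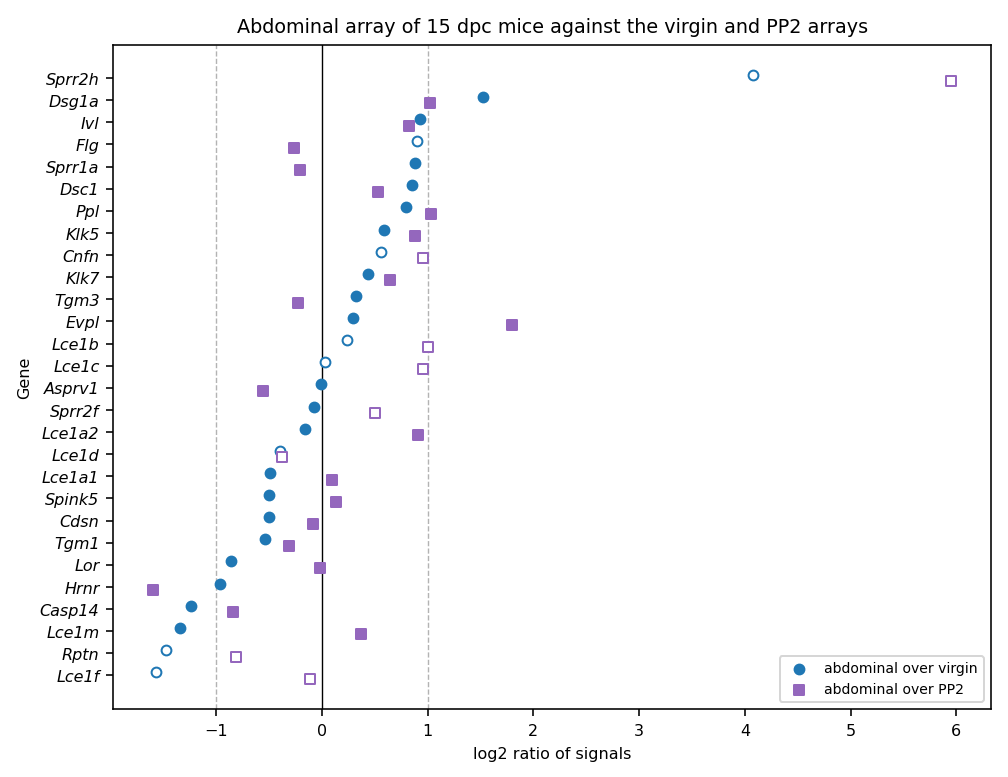
log2 ratio of signals on the abdominal array over the virgin (blue circles) and PP2 (purple squares) arrays for the 28 detected genes, ordered by the first, with open symbols where a present call was missing on either array and dashed lines at a ratio of 2 in each direction. *Dsg1a* (2.87-fold) and *Ivl* (1.90-fold) stand near the top and *Lor* and *Lce1m* near the bottom. The 2 points of *Sprr2h* divide a present abdominal signal by virgin and PP2 signals without a present call.

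Between vehicle and PP2 in abdominal skin at 15 dpc, 7 of 26 genes were higher on the abdominal array (background 12.6%) and 1, *Hrnr*, was higher on the PP2 array, by 3.02-fold (background 5.12%). The 7 were *Evpl* (3.48-fold), *Dsg1a* and *Ppl* (2.04-fold each), *Lce1b* (at least 2.01-fold), *Sprr2h*, *Lce1a1* by its dimmer probe set (at least 4.42-fold) and *Dsc1* by its dimmer probe set (at least 2.96-fold). By their brighter probe sets *Lce1a1* and *Dsc1* differed by 1.07-fold and 1.44-fold. With the arrays scaled to one median of present signals 4 genes were higher on the abdominal array; that scaling took the median log2 ratio of all detected genes from 0.01 to -0.10 and that of the envelope genes from 0.25 to 0.14. The median log2 ratio was 0.25 (0.01 for all detected genes), beside 0.55 for the basal and 0.61 for the spinous list. *Lor*, *Flg*, *Tgm1* and *Tgm3* differed by 1.02-fold to 1.24-fold, each higher on the PP2 array. The uneven *Gapdh* control of the PP2 array, given above, belongs beside these values, and its part in them was not tested. Set against the virgin array, the PP2 array was higher for 2 of 24 genes, *Flg* (at least 2.08-fold) and *Sprr1a* (2.13-fold), with a background of 4.99%, and lower for 4, *Evpl*, *Lce1a1*, *Lce1a2* and *Lce1m* (2.10-fold to at least 4.93-fold, the last by the dimmer probe set of *Lce1a1*), with a background of 12.0%.

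Of the 42 genes, 29 lie on chromosome 3 in the epidermal differentiation complex, within a run of 67 genes from *Lor* to *Rptn* in the RefSeq annotation, and 13 lie on other chromosomes. In the order of the chromosome *Lor* stands first, followed by the *Sprr* genes, *Ivl*, the *Lce* genes and the fused S100 genes *Flg*, *Hrnr* and *Rptn*. The dorsal excess was not even along this run. It was large in *Lor*, the first gene, and in *Lce1m*, *Flg* and *Hrnr* near the other end. *Lce1c*, between them, had log2 ratios of 2.76, 2.74 and 3.69 over the virgin, abdominal and PP2 arrays. The excess was smaller in *Ivl*, the remaining detected *Lce1* genes and *Sprr1a*. *Rptn*, the last gene, had no present call on the dorsal array by its brightest probe set, and log2 ratios of -0.54, 0.94 and 0.12 over the virgin, abdominal and PP2 arrays. The 15 detected genes of the run had a median log2 ratio of dorsal over abdominal of 1.24 (-1.70 to 5.12), and the 13 genes elsewhere, all detected, one of 1.13 (0.11 to 2.54). Over the virgin array the medians were 1.31 inside the run and 1.65 elsewhere, and over the PP2 array 1.98 and 1.64, so neither place was higher in all 3 comparisons.

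**Figure D4:**
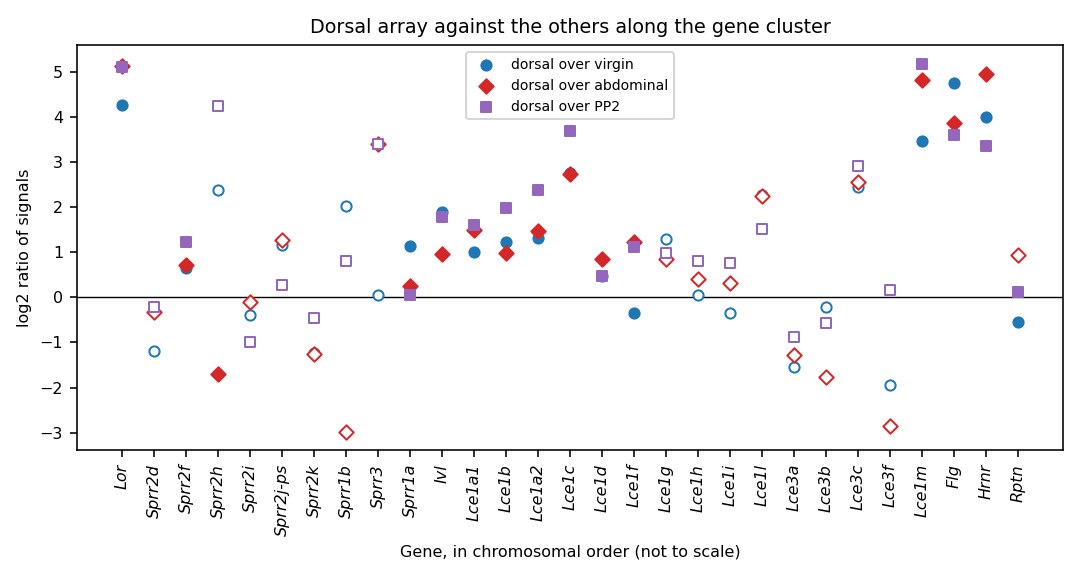
log2 ratio of signals on the dorsal array over the virgin (blue circles), abdominal (red diamonds) and PP2 (purple squares) arrays for the 29 genes of the cluster on chromosome 3, in chromosomal order and not to scale, with open symbols where neither array of a pair had a present call. *Lor* at the left and *Lce1m*, *Flg* and *Hrnr* at the right reach values above 3 over each of the other arrays, and *Lce1c* does so over the PP2 array. The *Sprr* genes have mostly open symbols.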

How the data were processed

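Total RNA of dermal cells (4 samples, 1 per condition) was labelled and hybridised by the authors to Affymetrix Mouse430_2 arrays, after their 3′ IVT protocol. The deposited values are MAS5 intensity signals of 45101 probe sets, with detection calls, made by the authors in Affymetrix Expression Console (version 1 per the submitters' processing notes). The tables of single arrays and of all arrays differed in 0 values, and 0 columns lacked a sample. Conditions came from the sample titles.

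Probe sets with 1 symbol in the platform annotation were used, control probe sets left out. All 42 members matched RefSeq of GRCm38.p6 by Entrez identifier, with 0 symbols changed. A gene counted as higher when any probe set had a ratio above 2 and a present call on the brighter array, and backgrounds are the genes called present on either array of the pair. Medians used each gene's brightest probe set by mean log2 signal. Where RefSeq gives several starts, the first listed was used, and another motif, AACCNGTT (both strands), was found in 1 of 35 members, *Rptn*, and in 1.71% of all genes. Python 3.11.15, numpy 2.4.6 and pandas 2.3.3 were used, and the counting was tested on simulated data. Alternatives were scaling to one median of present signals, quantile normalization, ratios of 1.5 and 3, no calls, calls on both arrays, and other choices of probe set. Every member is named, with its signals where its brightest probe set was present on any array. Of the other lists, the first 4 genes and the 3 with the largest ratio between dorsal and abdominal arrays could be named. *Krt79*, *Them5* and *Tgm5* were named after their values were seen. The members, lists and tests were chosen with earlier results of these data known.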

Additional observations from a re-analysis of the deposited data

Results flagged for a closer look

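A signal outside the genes compared above came from a probe set that matches 3 genes of the small proline-rich family, *Sprr2a1*, *Sprr2a2* and *Sprr2a3*, and so belonged to no single gene. Its signal was 432 in PP2-treated, 354 in abdominal and 228 in virgin skin, all called present, and 215 on the dorsal array without a present call. It was therefore above the virgin signal by 1.90-fold and 1.55-fold with PP2 and in 15 dpc abdominal skin, and at least 2.01-fold higher on the PP2 than on the dorsal array, an order unlike that of *Lor*. A probe set shared by *Sprr2a1* and *Sprr2a2* had no present call on any array, and another was called present on the dorsal array alone, at 30.6.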

How the results depend on the processing

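Of 86 alternative settings for 13 results, 64 left the result close to its value, 20 moved it and 2 turned its sign. The number of genes highest on the dorsal array, 25, became 24 with one median and 23 with quantile normalization, both chosen after seeing the data, and the 19 present throughout became 18 in both. The medians of dorsal over abdominal and over virgin kept their sign in all 10 alternatives. Counts higher on the abdominal than on the virgin array went from 2 to 4 with quantile normalization, 8 at a ratio of 1.5, 1 at 3, 6 without calls and 1 with both arrays present, and lower ones from 3 to 5, 0 and 5 at 1.5, at 3 and without calls. Higher than PP2 they went from 7 to 4 with one median, 12 at 1.5, 3 at 3, 12 without calls and 3 with both present, and lower from 1 to 2 with one median and 3 with quantile normalization or at 1.5. Higher on the dorsal than on the abdominal array they went from 18 to 9 at 3, and lower from 1 to 6 without calls and 0 with both present. Lower on the dorsal than on the virgin array they went from 0 to 4 without calls. The median log2 ratio of abdominal over virgin, 0.01, turned to -0.077 over all detected probe sets and to -0.043 over genes present on both arrays. Apart from the settings that define another threshold or filter, the cause was not tested. No paired analysis was possible because each condition has 1 array. Genes near the dimmest present signal (3.96 to 10.7) and the 14 undetected ones are the least certain.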
